A study of Mus musculus with 8 samples.

Results

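The genes described here are the receptors, ligands and effectors of the Notch pathway that were fixed by symbol: the receptors Notch1, Notch2 and Notch3, the ligands Jag1, Jag2 and Dll1, the glycosyltransferase Lfng, the nuclear factor Rbpj and the target genes Hes1 and Hey1. All 10 were found among the 23433 gene symbols counted, and 9 of them were among the 14176 genes tested; Hey1 had too few reads for a test. The study sequenced total RNA from sorted skin epithelium of newborn mice (age P0.5, mixed strain background) with or without an induced miR-200 family transgene, and its title concerns hair follicle development. Cells positive for K14RFP and high for α6 integrin were sorted into a P-cadherin-high population labelled hair germ, the early downgrowth that forms a hair follicle, and a P-cadherin-low population labelled interfollicular epidermis (IFE), the skin between follicles. There were 8 libraries from 4 pups, 1 of each population from each pup, so every group had 2 libraries.

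Transgenic hair germ and transgenic IFE came from pups 4 and 6, which carried both pTRE2-200bcl, the miR-200 transgene behind a doxycycline-responsive promoter, and K14rtTA, the activator driven by the keratin 14 promoter. Control hair germ and control IFE came from pup 3, which carried K14rtTA alone, and pup 5, which carried pTRE2-200bcl alone. The controls therefore each lacked a part of the system and differed from each other in genotype. All dams had been given doxycycline in their chow through pregnancy, and the keratin 14 promoter limits the activator to cells that use it. In such sorted bulk samples, fewer cells of a type and less RNA per cell cannot be told apart.

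Notch receptors are single-pass membrane proteins that are cut when a Jagged or Delta-like ligand on a neighbouring cell binds them, and the freed intracellular part joins RBPJ on DNA and switches on targets such as the Hes and Hey repressors. Fringe enzymes such as LFNG add a sugar to the receptor and so shift its response between ligand classes. In mouse skin, Notch1 signalling is known for moving keratinocytes out of the basal layer and for maintaining the hair follicle.

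The sequences below show the family's seeds, since the transgene belongs to it, and the labels do not spell out which mature forms the construct makes. These are the RefSeq mature microRNAs (mouse, GRCm38.p6), 5′ to 3′, with the seed, bases 2 to 8, in capitals.
mmu-miR-200b-3p: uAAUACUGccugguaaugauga
mmu-miR-200c-3p: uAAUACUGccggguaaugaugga
mmu-miR-429-3p: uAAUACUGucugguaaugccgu
mmu-miR-200a-3p: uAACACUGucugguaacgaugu
mmu-miR-141-3p: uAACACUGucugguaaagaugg
The first 3 share one seed and the last 2 share another. A match to a seed in a 3′ UTR is a description of letters and not a measured site.

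The 3′ UTRs of the members (GENCODE M21, GRCm38) were searched on the transcript strand for CAGTATT, the match to the miR-200b, miR-200c and miR-429 seed, and for CAGTGTT, the match to the miR-200a and miR-141 seed. Of the 10 members, 2 held the first, a share of 20%, against 13.4% of 18949 counted genes with a 3′ UTR, and 2 held the second, again 20%, against 17.7%. The stretches of 30 bases around these matches are printed to show where these letters lie, with the match in capitals.
Lfng, chr5:140615106-140615135, plus strand: ctgtacatattgtgaCAGTATTtttttact
Jag2, chr12:112907984-112908013, minus strand: ctcccgggacggcggCAGTATTgaagcttg
Notch1, chr2:26458838-26458867, minus strand: tgagtctgcaggctcCAGTGTTctgtagta
Notch2, chr3:98150014-98150043, plus strand: tgaaccaaaggtgttCAGTGTTcacgtgtg
The 3′ UTRs of Notch3, Jag1, Dll1, Hes1, Hey1 and Rbpj held neither match. Only full matches to a seed are counted in these shares. A looser kind of match lacks the first base of the full match and is followed by an A. Jag1 held 1 of these, to the miR-200a and miR-141 seed, and no other member held one to either seed. The share of all genes with the looser kind is not given. Of the members called in the tests below, Lfng held a match, while Dll1 and Rbpj did not.

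Each library held 7109871 to 14039583 counts, from 23.4% to 42.4% of its recorded reads. The ribosomal gene Rn45s took 30.6% of the counts in control IFE of pup 3 and 29.0% in transgenic IFE of pup 4, and 3.56% to 13.01% elsewhere, so results that rest on these 2 libraries are given with and without them. Reads on the transgene's own feature, miR200primary, averaged 662 ± 192 CPM in transgenic hair germ and 0.786 ± 0.862 CPM in control hair germ, and 660.5 ± 75.8 CPM in transgenic IFE and 3.23 ± 0.848 CPM in control IFE (SD, n = 2 each), where CPM are counts scaled to library size by edgeR's TMM method. Cdh3, the P-cadherin gene used for the sort, averaged 394 CPM in control hair germ and 339 CPM in control IFE, with ranges that overlapped. In transgenic pups it averaged 499 CPM in hair germ and 295 CPM in IFE, with ranges that did not overlap. Hair germ and placode markers, 14 of 14 found, summed to 2674 to 2718 CPM in control hair germ and 1477 to 2000 CPM in control IFE. Cdh3 is on this list, so the sums are not independent of the gene used for the sort. Ptch1 alone made 1044 and 904 CPM of the sums in control hair germ. In transgenic pups the sums were 2117 to 2630 CPM in hair germ and 1194 to 1308 CPM in IFE. Markers of immune cells, 14 of 15 found, summed to 232 to 404 CPM in transgenic hair germ and 67.9 to 143 CPM in control hair germ, and to 2656 to 3538 CPM in transgenic IFE and 109 to 226 CPM in control IFE.

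Set on a common scale per kilobase of exon model, Jag2 had the highest mean level of the 10 members over the 8 libraries, at 45.2 CPM per kilobase with a range of 28.8 to 70.8. Notch1 followed at 33.8 (27.5 to 44.4), Hes1 at 31.3 (23.5 to 41.8) and Jag1 at 29.9 (20.5 to 41.8) CPM per kilobase. These 4 ranges overlapped, and so did those of the neighbouring Lfng at 24.1 and Dll1 at 21.3 CPM per kilobase. Notch2 averaged 17.4 (14.6 to 21.8), Rbpj 10.6 (6.09 to 19.8) and Notch3 5.24 (2.05 to 9.43) CPM per kilobase, while Hey1 was at 0.169 (0 to 0.891). The receptors kept the order Notch1, Notch2, Notch3 in 8 of 8 libraries. Jag2 was above Jag1 in 7 of 8 libraries and was the highest of all 10 members in 6 of 8, and Hes1 was above Hey1 in 8 of 8. The exon lengths come from GENCODE M21 and not from the authors' own annotation.

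**Figure D1:**
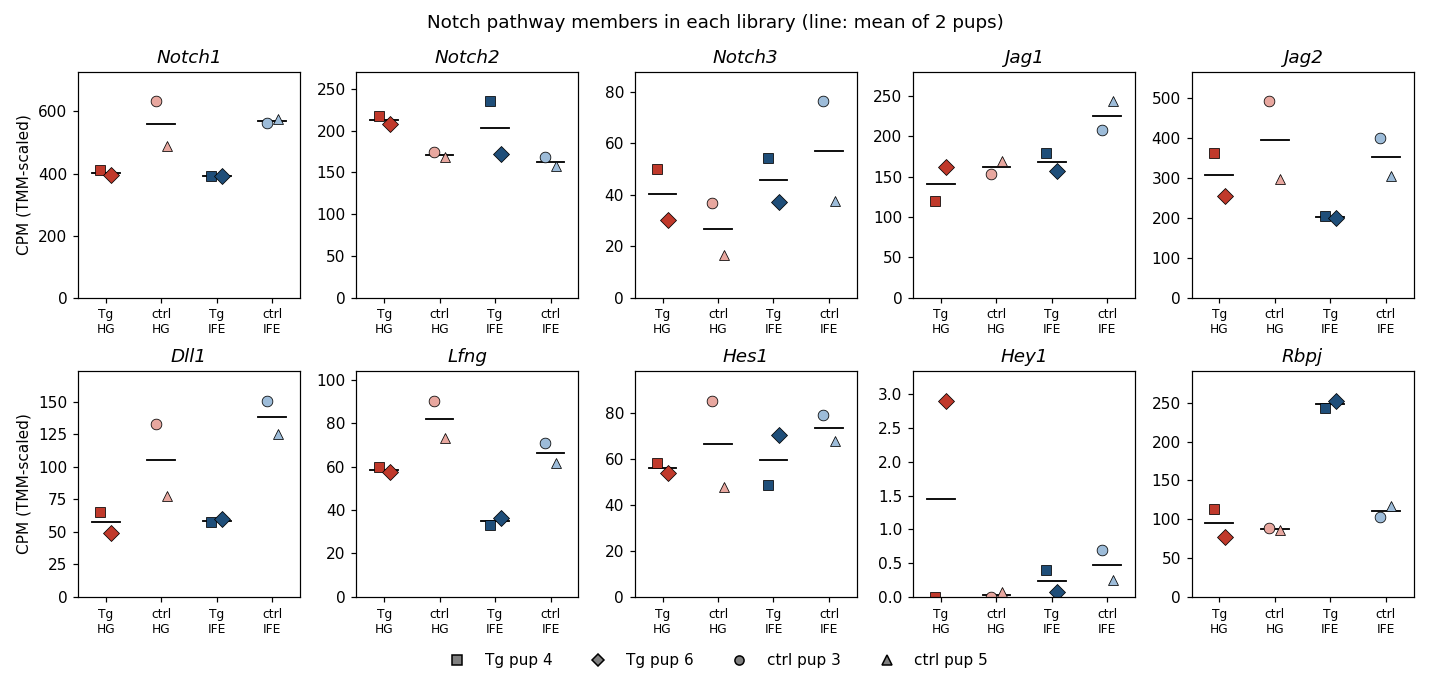
Level of each Notch gene in every library, in TMM-scaled CPM (y axis, linear from 0, a different range in each panel), for transgenic (Tg) and control (ctrl) hair germ (HG) and interfollicular epidermis (IFE). Symbols mark the pups and the bar is the mean of 2 pups; Rbpj stands at 243 and 253 CPM in transgenic IFE, and Dll1 is below both controls in both transgenic libraries of each population.

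The first comparison set transgenic against control pups within hair germ. Dll1 and Notch1 were lower in both transgenic libraries than in both controls, and Notch2 was higher, but no member passed an adjusted p of 0.05. In edgeR's quasi-likelihood test 0 of 9 members were called and 2 of 9 had an unadjusted p under 0.05. Over all genes tested, edgeR called 0.952%. DESeq2 and limma-voom also called 0 members, where they called 663 and 17 of 14176 genes. Libraries of the groups did not overlap for 4 of 9 members, against 39.3% of all genes tested. Of these, 3 were lower, against 16.9% of all genes, and 1 higher, against 22.4%. The median log2 fold change of the members was -0.25, against 0.04 over all genes tested. Melanocyte markers summed to 149 to 194 CPM in transgenic hair germ and to 32.7 to 32.8 CPM in control hair germ, where Mlana and Sox10 were at 0, and immune markers were higher as given above. The part of these cells in the values of hair germ was not tested.

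Among the receptors, Notch1 (chr2:26457903-26516663, minus strand, GRCm38) is the main receptor of the epidermis. It stood at 412 and 394 CPM in transgenic hair germ, against 633 and 489 CPM in control hair germ. Both transgenic libraries lay below both controls, with a log2 fold change of -0.48 (SE 0.19, 95% interval -0.90 to -0.05, edgeR adjusted p = 0.238). Notch2 (chr3:98013527-98150361, plus strand), another receptor, stood at 218 and 208 CPM in transgenic hair germ, against 174 and 169 CPM in control hair germ. Here both transgenic libraries were the higher ones, with a log2 fold change of 0.32 (SE 0.21, adjusted p = 0.469). Notch3 (chr17:32120820-32166852, minus strand) had 50.2 and 30.2 CPM in transgenic hair germ and 36.9 and 16.6 CPM in control hair germ. These values overlapped, and the 2 pups of 1 group differed about as much as the groups did (log2 fold change 0.60, SE 0.44, adjusted p = 0.524). The log2 fold change of Notch3 was 1.23 without control pup 3, 0.12 without control pup 5 and 0.15 without transgenic pup 4.

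The ligands lay lower on average in transgenic hair germ, with spreads that mostly overlapped. Jag1 (chr2:137081456-137116644, minus strand) had 119 and 162 CPM in transgenic hair germ and 154 and 170 CPM in control hair germ. Jag2 (chr12:112907819-112929776, minus strand) had 363 and 254 CPM in transgenic hair germ and 493 and 298 CPM in control hair germ. In both genes a transgenic library lay between the controls, and the log2 fold changes were -0.20 for Jag1 (SE 0.22, adjusted p = 0.680) and -0.36 for Jag2 (SE 0.27, adjusted p = 0.530). Dll1 (chr17:15367354-15376872, minus strand), the Delta-like ligand, had 65.2 and 49.2 CPM in transgenic hair germ, against 133 and 77.3 CPM in control hair germ. Its groups did not overlap, and its log2 fold change of -0.87 (SE 0.28, 95% interval -1.49 to -0.26, edgeR adjusted p = 0.151) had the lowest p of the 9. Among the alternatives run it passed only when control hair germ of pup 5 was left out, with a log2 fold change of -1.22 and an adjusted p of 0.0428; without that of pup 3 the log2 fold change was -0.48.

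Lfng (chr5:140607320-140615545, plus strand) had 59.6 and 57.4 CPM in transgenic hair germ, against 90.4 and 73.0 CPM in control hair germ. Both transgenic libraries were lower, at a log2 fold change of -0.48 (SE 0.24, edgeR adjusted p = 0.336). Rbpj (chr5:53466152-53657362, plus strand), the DNA-binding partner of the cut receptor, had 113 and 77.7 CPM in transgenic hair germ and 88.8 and 86.1 CPM in control hair germ. The controls lay between the transgenic values (log2 fold change 0.13, SE 0.22, 95% interval -0.36 to 0.62, edgeR adjusted p = 0.826). Hes1 (chr16:30064384-30067796, plus strand), a repressor that Notch switches on, had 58.2 and 53.6 CPM in transgenic hair germ and 85.2 and 47.8 CPM in control hair germ. Here the transgenic values lay between the controls, which were far apart (log2 fold change -0.25, SE 0.30, 95% interval -0.91 to 0.42, edgeR adjusted p = 0.727).

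Hey1 (chr3:8663359-8667256, minus strand), the other target gene among the members, was close to the detection limit. It had 36 reads in all 8 libraries together, of which 24 came from transgenic hair germ of pup 6, where they made 2.91 CPM. Transgenic hair germ of pup 4 and control hair germ of pup 3 had 0 reads, and the remaining libraries had 1 to 4. A count of 0 allows up to 3 reads, which were 0.199 to 0.522 CPM depending on the library. No fold is given, since 1 library holds most of the reads. Hey1 is also known from vessels, and endothelial markers, 8 of 8 found, summed to 43.0 to 62.0 CPM in transgenic hair germ and 6.64 to 8.43 CPM in control hair germ. Flt1 alone made 32.7 and 56.1 CPM of these sums in transgenic hair germ, against 7.73 and 0.133 CPM in control hair germ. Of the list, Cdh5, Emcn and Cldn5 were at 0 in both groups. Pecam1 had 1.85 and 0 CPM in transgenic hair germ and 0 in both controls. Kdr had 1.41 and 0.364 CPM in transgenic and 0.351 and 0 CPM in control hair germ. For Tek these were 3.43 and 4.00 CPM against 0.351 and 3.06 CPM. In hair germ edgeR called 0 of the 5 markers tested, and the part of such cells in the Hey1 reads was not tested.

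The second comparison set transgenic against control pups within IFE. Rbpj rose to 2.24 times its control level while Dll1 and Lfng fell, and Notch1, Jag1 and Jag2 had values below both controls without passing the test. In edgeR's quasi-likelihood test 1 of 9 members was called higher and 2 lower, against 4.99% of all genes tested called higher and 1.35% called lower. Either direction was called for 6.34% of all genes tested. Libraries of the groups did not overlap for 7 of 9 members, against 52.9% of all genes tested. Of these, 5 were lower, against 25% of all genes, and 2 higher, against 27.9%. The median log2 fold change of the members was -0.43, against -0.01 over all genes tested.

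Rbpj had 243 and 253 CPM in transgenic IFE, against 103 and 117 CPM in control IFE. Both transgenic libraries were above every other library of the series, with a mean of 248 ± 7.22 CPM against 110.3 ± 9.63 CPM in control IFE (SD, n = 2 each). The log2 fold change was 1.17 (SE 0.23, 95% interval 0.67 to 1.66, adjusted p = 0.00917 in edgeR). The call was lost with any 1 of the 4 IFE libraries left out. Each such fit left 1 library in a group and called fewer of all genes tested than the main fit. Such losses, here and for Dll1 and Lfng below, are therefore not particular to the gene. The log2 fold change stayed between 1.14 and 1.27 with any 1 library left out, and it was 1.13 with an adjusted p of 0.306 without the 2 libraries rich in Rn45s and 1.26 with 0.106 without both libraries of pup 4.

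Immune cells also use Rbpj, and immune markers moved with it. Of 14 immune markers tested, 13 were called higher in transgenic IFE, with a median log2 fold change of 4.17; Cd207 was at 0 in control IFE. Ptprc, the pan-leukocyte surface protein CD45, had 378 and 296 CPM in transgenic IFE, against 19.9 and 19.7 CPM in control IFE. In transgenic hair germ, where Ptprc had 29.0 and 30.5 CPM, Rbpj had the 113 and 77.7 CPM given above. Melanocyte markers, 9 of 9 found, summed to 142 to 165 CPM in transgenic IFE and 21.3 to 24.4 CPM in control IFE, where Tyrp1, Mlana and Sox10 were at 0. Mitf and Gpnmb, which macrophages also use, made most of the sum in transgenic IFE, with 54.1 and 43.2 CPM for Mitf and 68.7 and 41.3 CPM for Gpnmb. Of the 9 markers, edgeR called 5 higher and 0 lower in transgenic IFE, at a median log2 fold change of 4.45. Dct had 13.6 and 17.2 CPM in transgenic IFE and 0.697 and 1.36 CPM in control IFE. Tyr, the pigment enzyme tyrosinase, had 14.8 and 11.6 CPM in transgenic IFE and 18.6 and 12.8 CPM in control IFE. The part of these cells in the higher Rbpj was not tested.

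Dll1 had 57.2 and 59.8 CPM in transgenic IFE, against 151 and 125 CPM in control IFE. Its transgenic libraries nearly coincided and lay below both controls. The log2 fold change was -1.23 (SE 0.28, 95% interval -1.85 to -0.62, adjusted p = 0.0227 in edgeR). The call was lost without any 1 of the 4 IFE libraries, at adjusted p of 0.211 without transgenic pup 4, 0.172 without transgenic pup 6, 0.155 without control pup 3 and 0.0819 without control pup 5. Its log2 fold change stayed between -1.36 and -1.03 when any 1 library was left out, and was -1.04 with an adjusted p of 0.578 without the Rn45s-rich pair and -1.14 with 0.404 without both libraries of pup 4. With libraries scaled by size alone it was -1.05, with an adjusted p of 0.0787.

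Lfng had 33.0 and 36.5 CPM in transgenic IFE, against 70.7 and 61.7 CPM in control IFE. Both transgenic values were below both control values. The log2 fold change was -0.92 (SE 0.25, 95% interval -1.46 to -0.39), and its adjusted p of 0.0466 in edgeR was near the threshold. Lfng was called in 4 of 18 alternative fits, whose adjusted p ranged from 0.0241 with DESeq2 to 0.922 without the Rn45s-rich libraries. Without transgenic pup 4 its adjusted p was 0.479, without transgenic pup 6 it was 0.324, without control IFE of pup 3 it was 0.263 and without that of pup 5 it was 0.167. Leaving out transgenic hair germ also ended the call, at 0.0758 for pup 4 and 0.0765 for pup 6.

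Markers of basal keratinocytes moved beside Dll1 and Lfng. All 8 were found, and they summed to 16113 to 16355 CPM in transgenic IFE and 33193 to 35284 CPM in control IFE, with 6 of 8 called lower and a median log2 fold change of -1.02. In hair germ the same markers summed to 16780 to 20681 CPM in transgenic and 25486 to 29974 CPM in control libraries, with 0 of 8 called by edgeR. The part of basal cell numbers in the lower Dll1 and Lfng was not tested.

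The other members of the list did not pass in IFE. Notch1 had 391 and 391 CPM in transgenic IFE, against 564 and 575 CPM in control IFE, and the replicates of each group were close together. Its log2 fold change of -0.54 (SE 0.19, 95% interval -0.97 to -0.12) missed the threshold at an edgeR adjusted p of 0.151. Notch2 had 235 and 172 CPM in transgenic IFE, against 169 and 157 CPM in control IFE. Both transgenic values were the higher ones, as in hair germ, with a log2 fold change of 0.32 in each population (IFE SE 0.21, edgeR adjusted p = 0.523). In IFE the Notch2 value was not steady, since transgenic pup 6 lay close to control pup 3. It ran over 0.089 to 0.56 when 1 library at a time was left out. Notch3 had 54.2 and 37.3 CPM in transgenic IFE and 76.3 and 37.4 CPM in control IFE, which overlapped (log2 fold change -0.30, SE 0.44, edgeR adjusted p = 0.852). It was 0.34 without control IFE of pup 3, -0.74 without that of pup 5, -0.57 without transgenic IFE of pup 4 and -0.0073 without that of pup 6.

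Jag2, the ligand of the highest level, had 204 and 201 CPM in transgenic IFE, against 401 and 305 CPM in control IFE. Its groups did not overlap, and the log2 fold change was -0.80 (SE 0.27, 95% interval -1.39 to -0.22, edgeR adjusted p = 0.118). Jag1 had 179 and 157 CPM in transgenic IFE, against 208 and 243 CPM in control IFE. It too lay below both controls, at -0.43 on the log2 scale (SE 0.22, edgeR adjusted p = 0.361). Hes1 had 48.6 and 70.1 CPM in transgenic IFE and 79.1 and 67.7 CPM in control IFE, values that overlapped. Its log2 fold change was -0.30 (SE 0.31, 95% interval -0.96 to 0.37, edgeR adjusted p = 0.750). Hey1 had 0.405 and 0.0756 CPM in transgenic IFE and 0.697 and 0.255 CPM in control IFE, which were 1 to 4 reads.

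**Figure D2:**
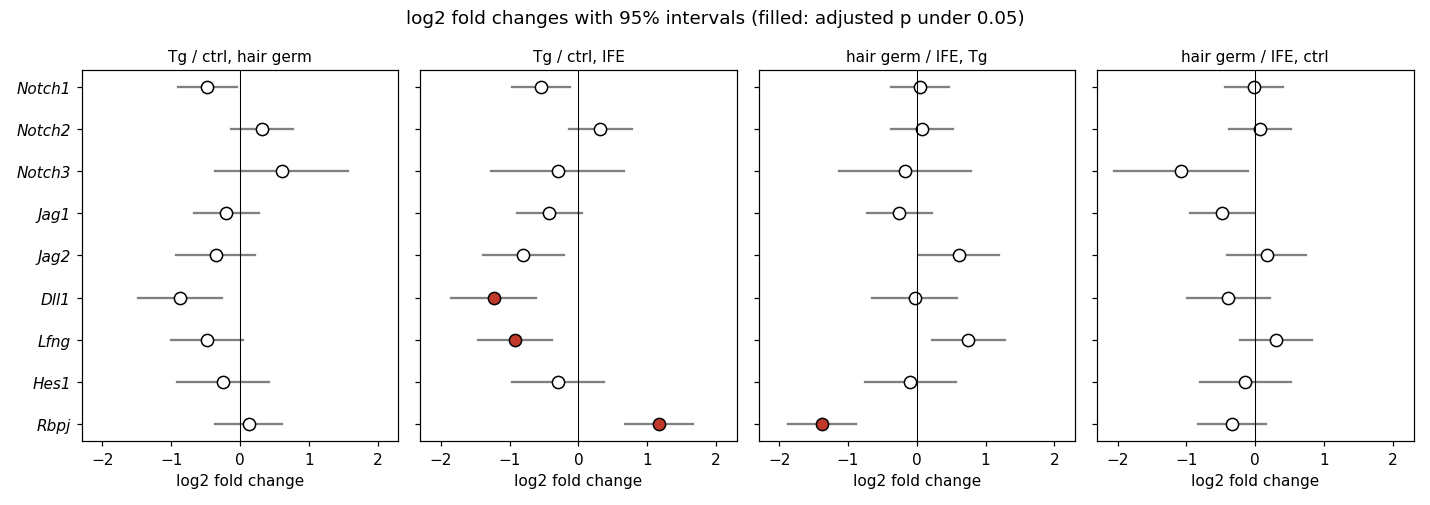
Log2 fold change (x axis) of each tested member with its 95% interval in 4 comparisons, from edgeR over all 8 libraries; filled points have an adjusted p under 0.05. Filled points stand at -1.23 for Dll1, -0.92 for Lfng and 1.17 for Rbpj in transgenic against control IFE, and at -1.38 for Rbpj in transgenic hair germ against transgenic IFE.

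The difference of the transgenic effect between the populations was tested as an interaction, effect in hair germ minus effect in IFE. Rbpj had the lowest p, with a difference of -1.04 on the log2 scale (SE 0.32, 95% interval -1.73 to -0.35, edgeR adjusted p = 0.361). The test called 0 of 9 members, with 1 of 9 at an unadjusted p under 0.05, where edgeR called 0.134% of all genes tested. DESeq2 and limma-voom called 0 members as well, where they called 177 and 1 of 14176 genes. For Dll1 the difference was 0.36 (SE 0.40, 95% interval -0.50 to 1.22) and for Lfng 0.44 (SE 0.34, 95% interval -0.30 to 1.19). For Notch1 it was 0.07 (95% interval -0.53 to 0.67) and for Notch2 -0.0049 (95% interval -0.64 to 0.63). Notch3 had the widest interval, 0.91 with -0.46 to 2.27, and its difference was 0.27 without control IFE of pup 3 and 1.51 without control hair germ of pup 3. Jag1 stood at 0.22 (95% interval -0.44 to 0.89), Jag2 at 0.44 (-0.38 to 1.26) and Hes1 at 0.05 (-0.89 to 0.99). Hey1 was not tested. Thus a call in IFE beside none in hair germ was not shown to be a difference between the populations for any member.

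The third comparison set hair germ against IFE. In control pups no member passed: edgeR called 0 of 9, with 2 of 9 at an unadjusted p under 0.05, and DESeq2 and limma-voom called 0 as well. Over all 14176 genes tested edgeR called 1 (0.00705%), DESeq2 149 and limma-voom 0. With limma-voom the 0 of 9 could therefore not have been otherwise. Notch3 had 36.9 and 16.6 CPM in control hair germ, against 76.3 and 37.4 CPM in control IFE, and lay lower in hair germ in both pups. Its log2 fold change was -1.08 (SE 0.45, 95% interval -2.05 to -0.10, edgeR adjusted p = 0.576). It ran from -1.72 without control hair germ of pup 3 to -0.47 without control IFE of pup 3, and was -0.61 without control hair germ of pup 5. Jag1 had 154 and 170 CPM in control hair germ, against 208 and 243 CPM in control IFE, at a log2 fold change of -0.48 (SE 0.22, edgeR adjusted p = 0.584). Groups did not overlap for 4 of 9 members, against 33.4% of all genes tested. Lfng and Rbpj were the others that did not overlap, at 0.31 (SE 0.24, edgeR adjusted p = 0.726) for Lfng and -0.34 (SE 0.22, edgeR adjusted p = 0.686) for Rbpj. Notch1 was at -0.02 with a 95% interval of -0.45 to 0.40, and Notch2 at 0.07 with -0.38 to 0.53. Jag2 stood at 0.17 (95% interval -0.41 to 0.74), Dll1 at -0.39 (-0.99 to 0.21) and Hes1 at -0.14 (-0.81 to 0.52). Hey1 had 0 and 1 reads in control hair germ and 4 and 3 in control IFE.

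In transgenic pups the same comparison called 1 of 9 members, against 4.62% of all genes tested in either direction and 3.75% lower in hair germ. Rbpj was lower in transgenic hair germ than in transgenic IFE, by the values already given, with a log2 fold change of -1.38 (SE 0.23, 95% interval -1.87 to -0.88, adjusted p = 0.00511 in edgeR). This comparison shares the transgenic IFE libraries with the one above. With the pup as a block the log2 fold change was -1.40 and the adjusted p 0.00362, so pairing by animal did not change the call. The call was lost without transgenic hair germ of pup 6 (log2 fold change -1.17), without both libraries of pup 4 (-1.76) and without the Rn45s-rich pair (-1.42). Each of these fits left 1 library in a group and called fewer of all genes tested than the main fit. The losses are therefore not particular to Rbpj. The same immune markers were lower in transgenic hair germ, 13 of 14 called, and their part in the result was not tested.

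Lfng and Jag2 were the members with higher values in both transgenic hair germ libraries than in both transgenic IFE libraries, at log2 fold changes of 0.75 for Lfng (SE 0.24, edgeR adjusted p = 0.117) and 0.61 for Jag2 (SE 0.27, edgeR adjusted p = 0.247); Notch1 also did not overlap but at 0.04. Groups did not overlap for 4 of 9 members, against 55.2% of all genes tested. Dll1 stood at -0.03 between the populations of transgenic pups, with a 95% interval of -0.65 to 0.59. Notch2 stood at 0.07 (95% interval -0.38 to 0.52), Notch3 at -0.17 (-1.13 to 0.79), Jag1 at -0.26 (-0.73 to 0.21) and Hes1 at -0.09 (-0.76 to 0.57). Hey1 had 0 and 24 reads in transgenic hair germ and 3 and 1 in transgenic IFE.

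Ratios of counts within a library need no scaling between libraries. There were 1.89 and 1.89 Notch1 reads per Notch2 read in transgenic hair germ, against 3.63 and 2.90 in control hair germ. In IFE there were 1.66 and 2.27 in transgenic libraries, against 3.35 and 3.65 in controls. Every transgenic library thus lay below every control library, but the 8 libraries came from 4 pups. The share of all gene pairs that separate in this way was not counted. A ratio shows unequal change and not which of the receptors moved. The reads of Rbpj per Notch1 read were 0.621 and 0.646 in transgenic IFE, against 0.183 and 0.204 in control IFE. In hair germ they were 0.274 and 0.197 in transgenic libraries, against 0.140 and 0.176 in controls. Dll1 reads per Jag1 read were 0.546 and 0.303 in transgenic hair germ and 0.865 and 0.456 in control hair germ, which overlapped. In IFE they were 0.319 and 0.380 in transgenic libraries, against 0.724 and 0.513 in controls, which did not. Jag1 reads per Jag2 read were 0.878 and 0.784 in transgenic IFE and 0.519 and 0.799 in control IFE. These overlapped, as they did in hair germ.

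**Figure D3:**
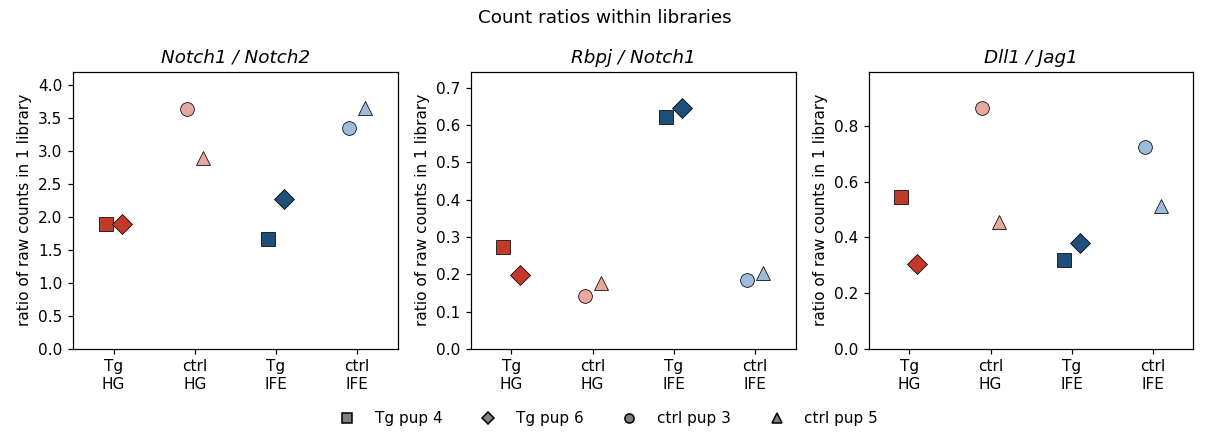
Ratio of raw read counts of pairs of Notch genes within each library (y axes, linear from 0), by group, with a symbol for each pup. Notch1 per Notch2 is 1.66 to 2.27 in the 4 transgenic libraries and 2.90 to 3.65 in the 4 control libraries, and Rbpj per Notch1 stands apart in transgenic IFE at 0.621 and 0.646.

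The pups of a group also differed among themselves. Of 9 tested members, 6 were higher in control pup 3 than in control pup 5 in both populations, namely Notch2, Notch3, Jag2, Dll1, Lfng and Hes1, and Jag1 was lower in both. Pup 3 carried K14rtTA and pup 5 pTRE2-200bcl, so that genotype and animal cannot be told apart there. In transgenic pups, Notch2, Notch3 and Jag2 were higher in pup 4 than in pup 6 in both populations, and no member was lower in both. The share of all genes tested that keep such an order in both populations was not counted. The IFE libraries of pup 3 and pup 4 were also the ones rich in Rn45s.

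The wider pathway was covered by 7 lists with 60 genes, all found and 51 tested. In hair germ edgeR and limma-voom called 0 of 51 between transgenic and control pups, where edgeR called 0.952% of all genes, with 6 of 51 at an unadjusted p under 0.05 in edgeR; DESeq2 called Dlk2. In IFE edgeR called 3 of 51, near the 6.34% of all genes: Furin higher, Dlk2 and Trp63 lower. Furin, the protease that cuts the receptor precursor, had 309 and 207 CPM in transgenic IFE, against 129 and 116 CPM in control IFE (log2 fold change 1.08, SE 0.26, edgeR adjusted p = 0.0264). Both transgenic libraries were higher. Dlk2, a non-canonical ligand-like gene, had 9.98 and 6.88 CPM in transgenic IFE, against 46.7 and 27.9 CPM in control IFE (log2 fold change -2.15, SE 0.46, edgeR adjusted p = 0.0156). In hair germ it had 8.89 and 12.2 CPM in transgenic libraries, against 40.0 and 22.8 CPM in controls, at -1.58 (SE 0.44, edgeR adjusted p = 0.108).

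Trp63, the transcription factor of basal keratinocytes that is known to counteract Notch1 in mouse keratinocytes, had 598 and 651 CPM in transgenic IFE, against 1108 and 1089 CPM in control IFE. Both transgenic libraries were lower, at -0.81 (SE 0.20, edgeR adjusted p = 0.0356). Between the populations of transgenic pups edgeR called 2 of 51, near the 4.62% of all genes tested. Trp63 was higher in transgenic hair germ, with 1339 and 1093 CPM, than in the transgenic IFE libraries just given (log2 fold change 0.96, SE 0.20, edgeR adjusted p = 0.0202). Adam17, a surface protease of the receptor, had 67.4 and 58.7 CPM in transgenic hair germ, against 121 and 129 CPM in transgenic IFE (log2 fold change -0.99, SE 0.22, edgeR adjusted p = 0.0236). In transgenic against control IFE none of these genes was called by edgeR without the 2 Rn45s-rich libraries, with 5 at an unadjusted p under 0.05. Leaving out 1 IFE library there kept Furin alone without transgenic pup 6, Dlk2 alone without control pup 5, and 0 without transgenic pup 4 or control pup 3; all 3 were lost without both libraries of pup 4. Trp63 was also lost with library size alone, with edgeR's legacy method, with only the 4 libraries of the comparison, and without transgenic hair germ of either pup. Furin was also lost with the legacy method and without transgenic hair germ of pup 6. Other settings called further genes in IFE: DESeq2 added Psen2, and library size alone added Dtx4 and Neurl1a. With only the 4 libraries of the comparison 6 were called, namely Aph1c, Dlk2, Dtx4, Furin, Neurl1a and Psen2. That fit called 1277 of 13157 genes tested. Between the populations of transgenic pups, the calls of Adam17 and Trp63 were lost with library size alone. They were also lost without any 1 of the 4 transgenic libraries, without pup 4 and without the Rn45s-rich pair. The fits that left out transgenic libraries also called fewer of all genes tested. With the pup as a block edgeR called Krt1 beside Adam17 and Trp63. With only the 4 libraries Cdkn1a, Krt1 and Krt10 were called beside them, and with the random block Mfng. In control pups edgeR called 0 of 51 between the populations, against 0.00705% of all genes, with 5 at an unadjusted p under 0.05. DESeq2 and limma-voom called 0 as well, and limma-voom called 0 of all genes there. For the difference of the effects edgeR called 0, against 0.134% of all genes, with 1 at an unadjusted p under 0.05. DESeq2 called Trp63 and limma-voom called 0. The immune and basal markers moved beside these genes as given above. Trp63 is itself on the list of 8 basal markers and among those called lower in IFE. The part of such cells was not tested.

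By list, the 10 cleavage genes (Furin, the Adam10 and Adam17 proteases and the γ-secretase subunits) were above 0 in 9 cases in each population. Their median log2 fold change was 0.29 in hair germ and 0.53 in IFE, against 0.04 and -0.01 over all genes tested; 0 and 1 of the 10 were called by edgeR, against 0.952% and 6.34% of all genes, with 1 and 4 at an unadjusted p under 0.05. Of 13 nuclear cofactors, such as the Mastermind-like coactivators, 10 were below 0 in each population, at medians of -0.13 in hair germ and -0.22 in IFE, and 0 were called, with 0 at an unadjusted p under 0.05 in edgeR. Of 6 epidermal genes known to lie downstream of Notch, 4 were below 0 in each population, at medians of -0.12 in hair germ and -0.45 in IFE, and Trp63 was the only one called, in IFE. Nrarp, another direct target and a feedback inhibitor, had 30.1 and 42.4 CPM in transgenic hair germ and 28.4 and 25.3 CPM in control hair germ, and 25.6 and 27.4 CPM in transgenic IFE and 44.2 and 31.6 CPM in control IFE. It was chosen after its values were seen and was not called in either population (edgeR adjusted p = 0.524 and 0.518).

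**Figure D4:**
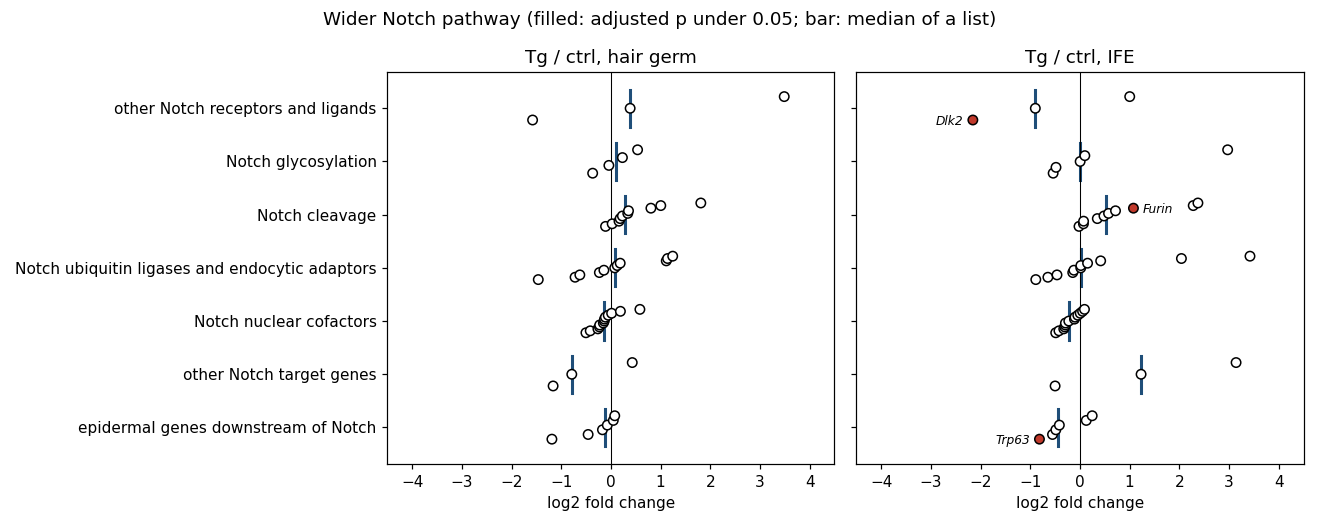
Log2 fold change of transgenic over control pups (x axis) for each tested gene of the 7 wider Notch lists, in hair germ and in IFE; filled points have an adjusted p under 0.05 in edgeR and the bar is the list's median. Furin, Dlk2 and Trp63 are the 3 filled points, all in IFE; a gene with no read in either group of a panel is left out there.

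The promoter table held an RBPJ core motif, TGGGAA, in the windows of Lfng and Rbpj among the members. The windows ran from 250 bases before to 50 bases after the start in RefSeq (GRCm38.p6), both strands were searched, and 25.6% of 32851 promoters hold the motif. Lfng had matches at -135 and -108 from its start, and Rbpj had 2 distinct matches over its pair of overlapping windows. The windows of Notch1, Notch2, Notch3, Jag1, Jag2 and Dll1 had none, which says only that these letters are not in them. Hes1 and Hey1 were not searched. The Lfng stretch is printed, since Lfng was called and is known as a Notch target in other mouse tissues, as 200 bases of chr5:140607091-140607290, plus strand, with the motif in capitals on either strand.
Lfng promoter: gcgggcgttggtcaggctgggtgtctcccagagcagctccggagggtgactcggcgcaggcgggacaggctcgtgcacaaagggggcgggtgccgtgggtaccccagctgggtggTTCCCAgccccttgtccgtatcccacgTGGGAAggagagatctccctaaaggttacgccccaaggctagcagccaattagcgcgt

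Genes most like 4 of the members were sought by the mean absolute difference of centred log2 CPM over the 8 libraries. For Notch1 these were Lig3 at 0.0710, Nup54 at 0.0714 and Wee1 at 0.0772. For Jag1 they were Kcmf1, Tomm20 and Blzf1, for Jag2 Prickle1, Arhgap32 and Osbpl5, and for Hes1 Yars, Bod1 and Rraga, with differences of 0.0834 to 0.144. These points share library, depth and scaling, so the likeness is a description and no other member was among these genes.

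Annotated models overlap 4 members in GENCODE M21: A930024N18Rik lies opposite Dll1, 0610009E02Rik and Gm13568 opposite Notch1, Gm17276 opposite Notch3, and Gm42820 on the strand of Notch2. None of them is in the count files. The kit marks strand, but the sources used here give no strand setting for the counting, so reads from such partners could be included.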

How the data were processed

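Values are the authors' deposited raw counts per gene symbol, 1 file per library, with 5 summary lines set aside. TopHat, HTSeq, DESeq2 and mm10 (GRCm38) are named, per the submitters' processing notes, without versions or a strand setting. Per the labels' protocols, RNA was taken up in Trizol after the sort and made into SMARTer Stranded Total RNA libraries. A deposited normalised matrix was not used here. Counts were TMM-scaled and fitted in edgeR 4.0.16 (R 4.3.3, quasi-likelihood, legacy set to FALSE, filterByExpr) as 4 group means over all 8 libraries. Tests were two-sided, with Benjamini-Hochberg adjustment over 14176 genes and a threshold of 0.05. SE is the log2 fold change divided by the root of F. With 2 pups a group, an exact permutation test could not go below p = 0.333, so none was made. DESeq2 1.42.0 and limma 3.58.1 were alternatives. Both populations of a pup come from the same animal; across genes, deviations from the group mean correlated at 0.0868 between the populations of transgenic pups and 0.117 between those of control pups. For the 7365 genes averaging 4 or more on the log2 CPM scale, these correlations were 0.191 and 0.394. The edgeR steps were tested on simulated counts with no pup effect, where the planted changes were larger than those of the members. That test does not bear on changes of the members' size.

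All 10 members are named in every comparison. Genes of the wider lists are named where they passed in a comparison, at most 5 a list. Nrarp and the genes called only in an alternative fit were chosen after their values were seen. The latter are Aph1c, Cdkn1a, Dtx4, Krt1, Krt10, Mfng, Neurl1a and Psen2. The members and lists were chosen with earlier results of these data known. Counts of 0 and the floor of 3 reads cover counting error only.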

Additional observations from a re-analysis of the deposited data

How the results depend on the processing

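Calls in IFE depended on every library of that comparison. The fits without any of these libraries also called fewer of all genes tested than the main fit, so the losses are not particular to the members. The number of members called in transgenic against control IFE was 3, but 1 with library size alone, 0 without both libraries of pup 4 and 0 without the 2 libraries richest in Rn45s; leaving out 1 library gave 0 to 3. In hair germ it was 0, and 0 to 1 with 1 library left out. For hair germ against IFE in transgenic pups it was 1, but 0 without pup 4, 0 without the Rn45s-rich pair, and 0 to 1 with 1 library left out. With the pup as a replicate block it stayed 1 in transgenic and 0 in control pups, and limma-voom gave 2 in IFE, without Lfng, with the random block as without it. The block changed no call of a member. The counts in control pups and for the difference were 0 in every alternative run. In control pups limma-voom and the fit with Rn45s left out of the counts called 0 of all genes, so no member could be called there. For the difference each of these fits called 1 gene. Of the log2 fold changes under settings other than leaving out 1 library, 428 kept direction and side of the threshold, 15 lost a call and 25 changed sign, none of them a call; the cause was not tested. Library size alone moved the median of all genes from -0.01 to 0.15 in IFE, from -0.04 to 0.26 between populations of control pups and from 0.02 to 0.20 in transgenic pups.

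The log2 fold changes that changed sign ran from -0.33 to 0.30 under the altered settings. Without pup 4, Rbpj in hair germ was -0.19, Hes1 in IFE 0.0013, and Notch1 between populations of transgenic pups -0.050. Without the Rn45s-rich pair, Notch3 and Hes1 in IFE were 0.014 and 0.071, and Notch3 between populations of transgenic pups was 0.11. Between populations of control pups, Notch1 was 0.00062 with DESeq2, 0.30 with library size alone, 0.00092 with no filter and 0.0029 with only the 4 libraries, and Hes1 was 0.19 with library size alone. Between populations of transgenic pups, library size alone gave 0.035 for Notch3, 0.14 for Dll1 and 0.050 for Hes1. For the difference of the effects, library size alone gave -0.072 for Notch1 and -0.14 for Hes1, and no filter gave -0.011 for Hes1. Notch2 there was 0.026 with limma-voom, 0.0098 with the pup as a block in edgeR and 0.025 with the random block. Without pup 4 the differences were -0.049 for Notch1, 0.12 for Notch2 and -0.33 for Hes1, and without the Rn45s-rich pair 0.15 for Notch2 and -0.32 for Hes1.

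Leaving out 1 library at a time changed the sign of these members, none of them called. In hair germ, Jag2 ran over -0.68 to 0.0033, Hes1 -0.61 to 0.18 and Rbpj -0.21 to 0.35, and in IFE Notch3 ran over -0.74 to 0.34. Between populations of control pups, Notch1 ran over -0.18 to 0.15, Jag2 -0.20 to 0.48 and Hes1 -0.58 to 0.22. Between populations of transgenic pups, Notch1 ran over -0.037 to 0.042, Notch2 -0.18 to 0.30, Notch3 -0.64 to 0.11, Dll1 -0.30 to 0.12 and Hes1 -0.34 to 0.17. For the difference, Notch1 ran over -0.12 to 0.18, Notch2 -0.27 to 0.22, Jag1 -0.070 to 0.36 and Hes1 -0.32 to 0.44. Notch3 kept its sign but moved widely elsewhere, over 0.12 to 1.23 in hair germ, -1.72 to -0.47 between populations of control pups and 0.27 to 1.51 for the difference.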
